A study of Mus musculus with 38 samples.

Results

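Gene expression at lights off was compared with the middle of the light phase in oligodendrocyte precursor cells (OPCs) that lack intact BMAL1. OPCs are dividing glial progenitors from which the oligodendrocytes that wrap axons in myelin arise. The comparison took the 4 libraries of knockout cells at zeitgeber time 12 (KO ZT12, lights off) against the 7 libraries of knockout cells at zeitgeber time 6 (KO ZT6, 6 h after lights on), which is 11 of the 38 libraries of the series and uses every gene of the count table. KO cells came from NG2:Cre+;Bmal1fl/fl mice and the cells called WT from NG2:Cre-;Bmal1fl/fl mice, so both genotypes carry the floxed alleles and only KO carries Cre. WT supplied 6 libraries at ZT12 and 5 at ZT6 as the parallel comparison. Forebrains were taken at postnatal days 6 to 7, the cells were passed over plates that bind microglia and endothelial cells and were then caught with an antibody against PDGFRA, and 2 mice were pooled for each library. Cre is driven by the promoter of NG2 (Cspg4), a gene also used by pericytes, recombination removes the DNA-binding domain of BMAL1, and the submitters describe the model as a hypomorph. No Cre-positive group with intact Bmal1 was analysed here.

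BMAL1 (encoded by Arntl) pairs with CLOCK and switches on genes that carry E-boxes, among them those of the period, cryptochrome and REV-ERB repressors, which later shut the pair down. The same repressor genes also respond to other inputs: Per1, for instance, is switched on within minutes to hours by glucocorticoids, CREB and serum response factors. In OPCs the clock has been linked to proliferation and myelination. KO cells at 2 times of day therefore show which time-dependent differences are measured where the activating arm of the clock is impaired.

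Libraries held 22.0 to 28.1 M counts at KO ZT12 and 19.4 to 38.3 M at KO ZT6. The library KO ZT6 replicate 7 had 0.0848% of its counts in ribosomal RNA genes and the other 10 had at least 0.409%. KO ZT6 replicates 1, 5 and 6 held RNA of males only by sex-linked genes, although the design states that both sexes were pooled, and every KO ZT12 library held both. In WT, replicate 2 of ZT6 and replicates 1 to 4 of ZT12 held RNA of females only by the same genes. Pdgfra averaged 4171 ± 576 CPM at KO ZT12 and 3938 ± 622 CPM at KO ZT6 (SD, n = 4 and 7), where CPM is the count scaled to the TMM-adjusted library size. The 20 OPC markers summed to 16742 to 21453 CPM at KO ZT12 and 17568 to 24833 CPM at KO ZT6, so the label is borne by its markers. The 20 markers of microglia and macrophages summed to 8339 to 14974 CPM at KO ZT12 and 8944 to 21910 CPM at KO ZT6, so these libraries also held microglial RNA despite the negative selection. In such bulk libraries, fewer cells of a type and less RNA per cell cannot be told apart.

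Libraries of KO OPCs held less RNA at ZT12 than at ZT6 of 25 of 33 immediate early genes, 14 of 20 NF-kB and cytokine genes, 13 of 20 heat shock chaperones and 7 of 20 clock genes. Which cells in the libraries the RNA came from was not measured. More RNA was counted for 5 of 18 astrocyte, 3 of 20 neuron and 5 of 8 red blood cell markers. Of 22798 genes tested, 500 were higher at KO ZT12 (2.19%) and 1100 were lower (4.82%) by edgeR's quasi-likelihood test at a Benjamini-Hochberg adjusted p under 0.05, which is 7.02% called in all. Changes past 2-fold were counted for 104 of the higher and 259 of the lower genes. All 4 KO ZT12 libraries lay above all 7 KO ZT6 libraries for 359 genes (1.57%) and below them for 505 genes (2.22%), which is 3.79% in all, and 235 and 392 of them were called. The count of called genes rested on single libraries: it was 567 without KO ZT12 replicate 1 and 981 without KO ZT12 replicate 3. It was 1012 when low-rRNA libraries were dropped and 1943 when one-sex libraries were. A fit of the 11 KO ZT12 and KO ZT6 libraries alone, with fewer libraries behind its estimate of spread, called 65 genes higher and 306 lower, and 49 of the 112 called genes named here did not pass in it. With library size alone in place of TMM, 1323 genes were higher and 732 lower (64.4% higher, against 31.2% with TMM), and the median log2 fold change of all genes was 0.09, against -0.01.

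Base composition moved with the comparison. The correlation across genes between a library's deviation in log2 CPM and transcript GC content was -0.56, -0.23, -0.31 and -0.27 in the 4 KO ZT12 libraries and ran from -0.15 to 0.31 in the 7 KO ZT6 libraries, so the groups did not overlap. Genes called higher had a median GC content of 43.7% and a median transcript length of 4426 bases. Genes called lower had 54.45% and 2697 bases, and all tested genes 48.82% and 2724 bases. In the quintile of genes with the highest GC content, 13 were called higher and 526 lower. After a correction for GC content in each library, 295 genes were higher (1.29%) and 646 lower (2.83%), 4.13% in all, with 63 and 151 in that quintile, and 797 of the 1600 calls were kept. Across genes, the KO log2 fold change had a correlation with log2 transcript length of 0.29 before this correction and 0.21 after it. Each gene described below as higher or lower at KO ZT12 is given with its adjusted p under this correction where the call did not hold.

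**Figure D1:**
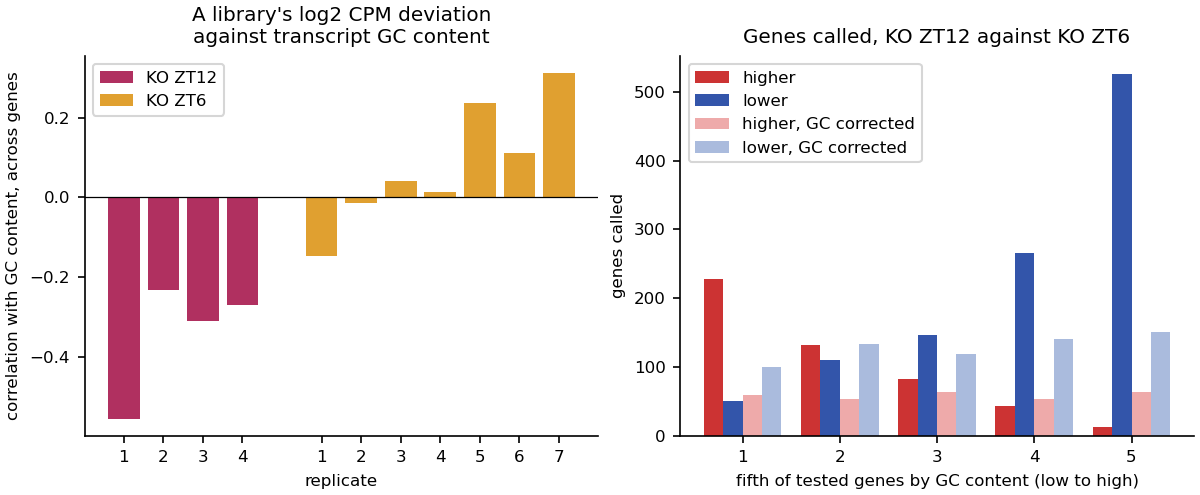
Left, correlation across genes between transcript GC content and each library's deviation in log2 CPM from the mean of all libraries, for KO ZT12 and KO ZT6 replicates; right, number of genes called higher or lower at KO ZT12 in each quintile of GC content, before and after GC correction. All 4 KO ZT12 bars lie below all 7 KO ZT6 bars, and the excess of lower calls in the top quintile (526) shrinks to 151 with the correction.

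The clock genes ask whether repressors of the loop still differ between the middle and the end of the light phase when BMAL1 is impaired. Of 20 clock genes in 5 lists, 7 were lower at KO ZT12, against 4.82% of all genes, and 1 was higher, against 2.19%. Without the low-rRNA libraries of all groups 8 were lower and 1 higher, and when the one-sex libraries were left out 7 were lower and 1 higher. In the fit of the 11 libraries alone, 2 were lower and 0 higher: Bhlhe41 and Dbp passed, and Per1, Ciart, Nr1d1, Rorb, Nfil3 and Nr1d2 had adjusted p-values of 0.0506, 0.0724, 0.0763, 0.0847, 0.0977 and 0.2. The E-box repressor genes Ciart and Bhlhe41 and the period gene Per1 had the largest changes. Their promoters are shown because they hold the 6-letter E-box CACGTG to which CLOCK and BMAL1 bind, in capitals, in 100-base windows upstream of the RefSeq gene start on GRCm38.p6, each written 5′ to 3′ on the gene's own strand. The Ciart window is chr3:95882259-95882358 (minus strand), the Bhlhe41 window chr6:145865521-145865620 (minus strand) and the Per1 window chr11:69098749-69098848 (plus strand).
Ciart: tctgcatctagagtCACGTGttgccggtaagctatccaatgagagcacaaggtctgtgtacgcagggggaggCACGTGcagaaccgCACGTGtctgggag
Bhlhe41: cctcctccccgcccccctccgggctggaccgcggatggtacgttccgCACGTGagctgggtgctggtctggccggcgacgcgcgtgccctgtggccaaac
Per1: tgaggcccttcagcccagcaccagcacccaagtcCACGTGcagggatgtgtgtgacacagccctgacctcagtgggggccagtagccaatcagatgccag
Ciart carries the letters 3 times, starting 116, 58 and 44 bases before the gene start, and the other 2 genes once each. CACGTG reads the same on both strands. It was found in 3 of the 8 called clock genes and in 8.09% of 27025 genes, in the window from 250 bases before to 50 bases after any listed start. A match in these windows is a description and no measure of binding.

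Ciart, a repressor that binds BMAL1, had 7.61, 10.1, 21.8 and 11.03 CPM in the KO ZT12 libraries, against a lowest, median and highest of 8.72, 61.5 and 88.5 CPM at KO ZT6. Its log2 fold change was -2.03 ± 0.42 (SE, adjusted p = 0.00227). The groups overlapped, because KO ZT6 replicates 6 and 7 (11.9 and 8.72 CPM) were as low as KO ZT12. Ciart fell short of the threshold with limma-voom (adjusted p = 0.0531) and lay between 2.68e-05 and 0.0724 over all settings tried.

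Per1 had 51.8, 66.8, 84.5 and 76.3 CPM at KO ZT12, against 71.7, 184 and 289 CPM (lowest, median and highest) at KO ZT6. It fell by 1.40 ± 0.27 on the log2 scale (adjusted p = 0.00153). KO ZT6 replicates 6 and 7 again held the lowest values, at 71.7 and 77.2 CPM, within the range of KO ZT12. Bhlhe41 (DEC2), which competes for E-boxes, averaged 36.7 ± 10.2 CPM at KO ZT12 and 94.2 ± 37.7 CPM at KO ZT6 (SD, n = 4 and 7; log2 fold change -1.36, adjusted p = 0.000624). Its relative Bhlhe40 had a log2 fold change of -0.21 (adjusted p = 0.655).

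Nr1d1 (REV-ERBα), the nuclear receptor that represses Arntl, had 10.98, 14.6, 16.5 and 18.3 CPM at KO ZT12 and 12.7, 41.6 and 58.7 CPM (lowest, median and highest) at KO ZT6. It was called lower, with a log2 fold change of -1.25 ± 0.25 (adjusted p = 0.00149). Its partner Nr1d2 had a smaller log2 fold change of -0.50 (adjusted p = 0.0242). That call was lost without either of KO ZT6 replicates 1 and 2 or any of KO ZT12 replicates 1, 2 and 4 (adjusted p up to 0.0717). Rorb, an activating receptor at the same DNA sites, was the 1 clock gene called higher: it averaged 16.0 ± 3.27 CPM at KO ZT12 and 9.88 ± 2.65 CPM at KO ZT6 (log2 fold change 0.69, adjusted p = 0.0058; adjusted p = 0.0591 without KO ZT12 replicate 1). Rora (0.19, adjusted p = 0.432) was not called.

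Among the D-box bZIP factors, which pass clock time on to output genes, Nfil3 and Dbp fell. Nfil3, the repressor of the set, averaged 20.3 ± 9.25 CPM at KO ZT12 and 46.4 ± 22.2 CPM at KO ZT6 (log2 fold change -1.19, adjusted p = 0.00703; 0.0626 without KO ZT12 replicate 1). Dbp, an activator and a direct target of BMAL1, had 7.18, 12.2, 6.83 and 8.93 CPM at KO ZT12, against 10.4, 15.9 and 21.4 CPM (lowest, median and highest) at KO ZT6. Its log2 fold change was -0.89 ± 0.16 (adjusted p = 0.000707). The KO and WT differences of Dbp were unlike: -0.89 in KO and -0.12 in WT, a difference of -0.77 ± 0.22 (adjusted p = 0.0449) that did not pass with GC correction (adjusted p = 0.629). Tef and Hlf had log2 fold changes of 0.03 and -0.07, neither called (adjusted p = 0.854 and 0.722).

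**Figure D2:**
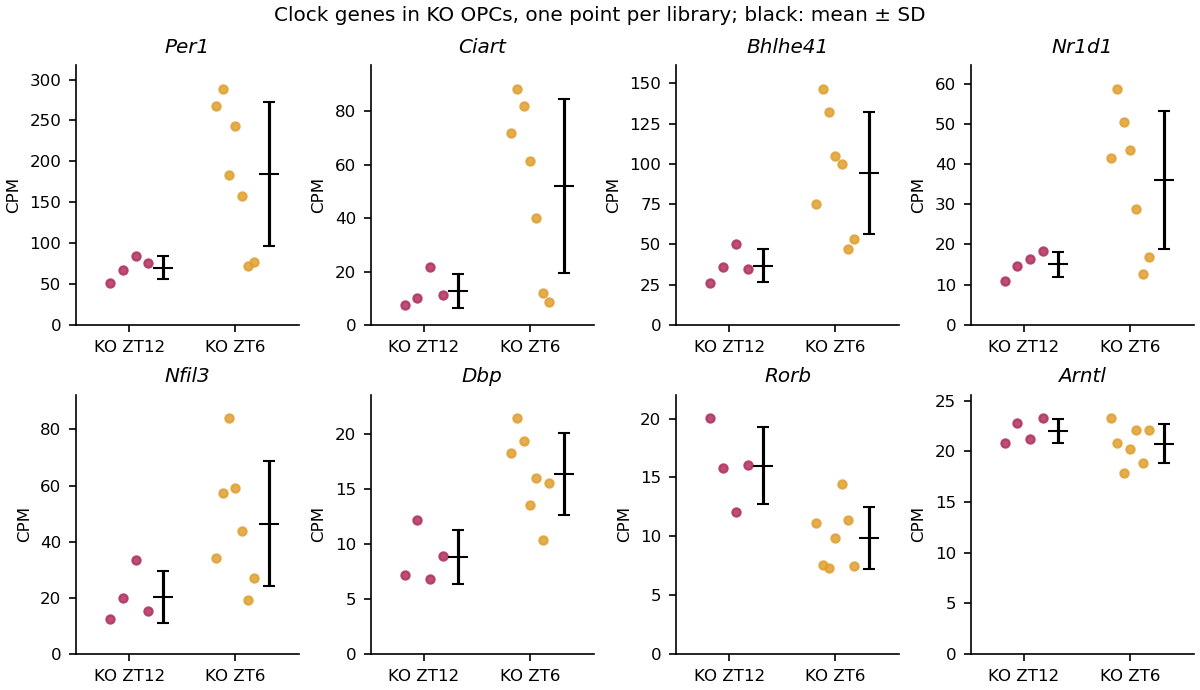
CPM of 8 clock genes in each KO ZT12 (left, n = 4) and KO ZT6 (right, n = 7) library, with the mean ± SD in black; every axis includes 0. KO ZT6 values spread widely for Per1, Ciart and Nr1d1, with 2 libraries at the KO ZT12 level, and the Arntl values of the groups overlap.

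The activating arm was not called. Arntl had 20.9, 22.8, 21.2 and 23.3 CPM at KO ZT12 and 17.9, 20.9 and 23.3 CPM (lowest, median and highest) at KO ZT6 (log2 fold change 0.09, adjusted p = 0.717). These counts include the exons that remain after recombination and do not check the genotype. Clock averaged 94.1 ± 16.4 CPM at KO ZT12 and 83.3 ± 17.0 CPM at KO ZT6 (0.18, adjusted p = 0.393), against 71.3 ± 7.42 CPM at WT ZT12 and 96.6 ± 5.20 CPM at WT ZT6. The KO change of Clock exceeded the WT change by 0.61 ± 0.16 (adjusted p = 0.033), but not with GC correction (adjusted p = 0.269). Npas2, a stand-in for CLOCK, had 0.76 (adjusted p = 0.162). Among the other repressors Cry1 lay near the threshold at -0.41 (adjusted p = 0.0558), with up to 0.194 over the settings tried, while Per2 (-0.25), Per3 (0.25) and Cry2 (-0.11) had adjusted p-values of 0.361, 0.341 and 0.73.

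In WT, 489 of all genes were higher at ZT12 (2.14%) and 569 lower (2.5%), 4.64% in all. The contrast called Per1 (-1.12), Ciart (-1.65), Bhlhe41 (-0.89), Nr1d1 (-0.99), Nr1d2 (-0.58) and Nfil3 (-0.85) lower, with adjusted p-values of 0.00717, 0.00705, 0.0158, 0.00728, 0.0079 and 0.0471. The difference between KO and WT was called for 0 of these 6 (adjusted p from 0.462 to 0.863). It was called for 3.14% of all genes, so 0 of 6 is near that share and does not show equal changes. Over the day, KO Per1 averaged 65.0 ± 17.8, 184 ± 87.7, 69.9 ± 14.1 and 88.9 ± 3.72 CPM at ZT0, ZT6, ZT12 and ZT18 (SD, n = 4, 7, 4 and 4). WT Per1 averaged 87.9 ± 24.5, 252 ± 64.9, 116 ± 23.5 and 48.8 ± 11.2 CPM (n = 4, 5, 6 and 4). All 4 KO ZT18 libraries were low-rRNA libraries.

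**Figure D3:**
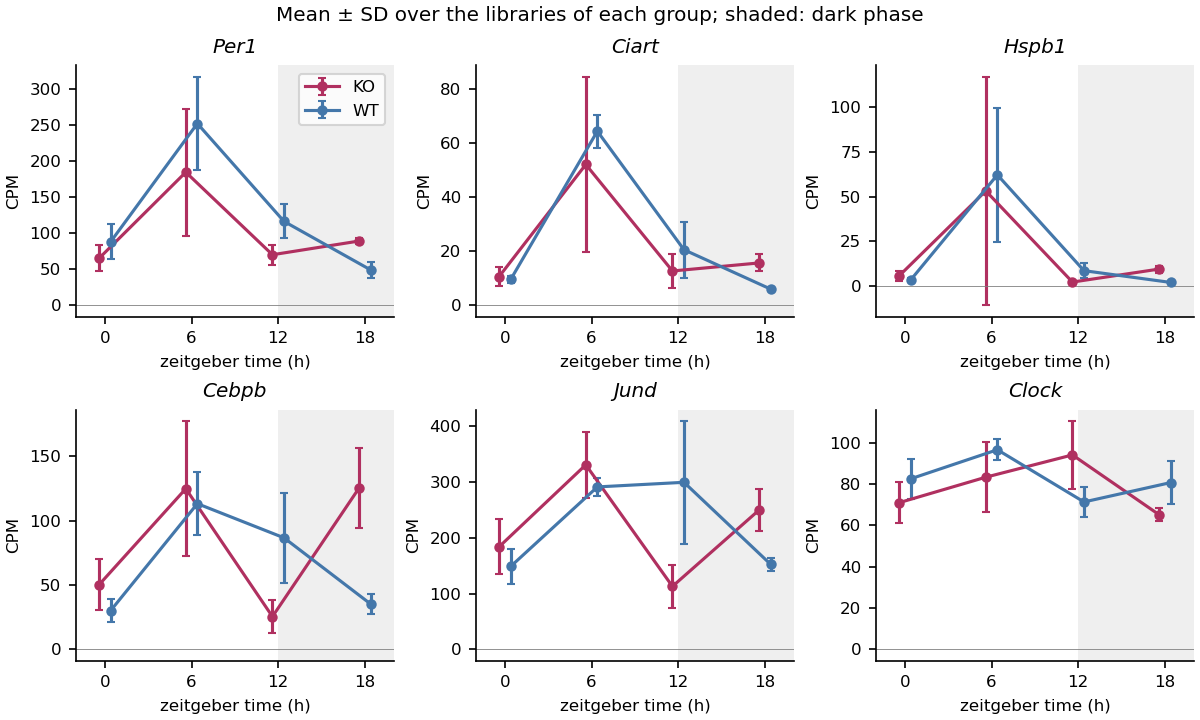
Mean CPM ± SD over the libraries of each group at 4 zeitgeber times for KO (red) and WT (blue), offset sideways for legibility, with the dark phase shaded. Per1, Ciart and Hspb1 are highest at ZT6 in both genotypes, and Cebpb and Jund stand lower at ZT12 in KO (25.5 and 113 CPM) than in WT (86.8 and 299.7 CPM). Replicates 4, 5 and 6 of WT ZT12 are low-rRNA libraries, and no KO ZT12 library is.

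Kinases, turnover factors and outputs of the clock held 7 further calls, read against 4.82% lower and 2.19% higher among all genes. Of 8 kinases and turnover factors, Btrc, a ubiquitin ligase subunit that marks PER proteins for destruction, was higher (0.52, adjusted p = 0.011) and Csnk1e, the PER kinase CK1ε, was lower (-0.25, adjusted p = 0.0415). Neither was called with GC correction (adjusted p = 0.0684 and 0.6) or without KO ZT12 replicate 1 (0.0613 and 0.231), and Csnk1e also lost its call without replicate 2, 3, 5 or 7 of KO ZT6 or replicate 3 of KO ZT12. Of 9 BMAL1 output genes tested, 5 were lower, with a list median of -0.29. Wee1, a kinase that delays mitosis, had 20.2, 25.5, 18.8 and 21.3 CPM at KO ZT12, below every KO ZT6 library (31.3, 34.0 and 54.9 CPM as lowest, median and highest). Its log2 fold change was -0.85 ± 0.15 (adjusted p = 0.000411). Coq10b, a coenzyme Q factor, was lower by -0.85 (adjusted p = 0.00875; 0.0567 without KO ZT12 replicate 1). Ppard (-0.35) and Por (-0.29) were called but not with GC correction (adjusted p = 0.0578 and 0.729), and without KO ZT12 replicate 1 the list kept 1 call, without KO ZT12 replicate 3 it kept 2, and without replicate 3 of KO ZT6 or replicate 2 of KO ZT12 it kept 3. In the 11 libraries alone the list kept 1 call. The cold-inducible RNA-binding protein genes Cirbp and Rbm3, which follow body temperature, and the splicing factor gene Sf3b1, kept in the same list, were not called by edgeR, DESeq2 or limma-voom (0 at an unadjusted p under 0.05) and had a median of 0.06. With library size alone Sf3b1 was called higher (adjusted p = 0.0346).

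The heat shock chaperones held the largest drops. Of 20 genes of the list, 13 were lower at KO ZT12 and 0 were higher, against 4.82% and 2.19% of all genes. The median log2 fold change was -0.51, against -0.01 for all genes. All 13 were also called with GC correction. Without KO ZT12 replicate 1 or 3 the list kept 8 calls, and with library size alone 8 were lower and 2 higher. It had 11 lower when low-rRNA libraries were dropped, 16 when one-sex libraries were and 3 in the fit of the 11 libraries alone, where Dnajb1 and Hspa1a had adjusted p-values of 0.0605 and 0.11. Heat shock elements, inverted repeats of GAA to which heat shock factors bind, lie upstream of Hspb1 and Hspa1a. They are shown in capitals as GAANNTTC, in RefSeq windows of 100 bases on GRCm38.p6 at chr5:135887769-135887868 (plus strand) and chr17:34972207-34972306 (minus strand).
Hspb1: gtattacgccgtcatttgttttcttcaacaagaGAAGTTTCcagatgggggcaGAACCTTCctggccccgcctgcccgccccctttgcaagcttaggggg
Hspa1a: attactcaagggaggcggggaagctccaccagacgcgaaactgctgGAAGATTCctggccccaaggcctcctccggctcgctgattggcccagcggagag
The Hspb1 matches start 117 and 97 bases before the gene start and the Hspa1a match 104 bases before it. The search took GAANNTTC or TTCNNGAA, each of which reads the same on both strands and which can overlap. It found a match in 7 of the 11 called chaperone genes that are in the promoter table and in 17.0% of all genes there.

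Hspb1, the small chaperone HSP27, had 0.875, 1.76, 2.74 and 3.87 CPM at KO ZT12, against 3.62, 24.4 and 184 CPM (lowest, median and highest) at KO ZT6. Its log2 fold change of -4.51 ± 0.72 (adjusted p = 0.00023) was the largest of any named gene. KO ZT6 replicate 6, at 3.62 CPM, lay inside the range of KO ZT12, and limma-voom gave an adjusted p of 0.124, the highest over the settings tried (lowest 3.48e-10). Hspa1a, an inducible HSP70, had 2.49, 5.56, 62.0 and 45.3 CPM at KO ZT12, against 7.51, 283 and 1849 CPM at KO ZT6. Both groups spread over more than 10-fold and overlapped. Its fall by 4.14 ± 1.13 on the log2 scale (adjusted p = 0.0204) was lost without replicate 3 of KO ZT6 or replicate 1 or 2 of KO ZT12 (adjusted p up to 0.0923) and with limma-voom (0.121). Reads of Hspa1a and its near-identical copy Hspa1b (-4.40, adjusted p = 0.0719) may be split arbitrarily.

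Bag3, the HSP70 cochaperone of selective autophagy, had 7.96, 12.6, 17.97 and 12.9 CPM at KO ZT12, all below the lowest KO ZT6 library (21.2 CPM; median 61.3, highest 163). It fell by 2.43 ± 0.37 on the log2 scale (adjusted p = 0.000169). Dnajb1, an HSP40, averaged 68.2 ± 5.91 CPM at KO ZT12 and 156 ± 82.6 CPM at KO ZT6 (-1.19, adjusted p = 0.00127). Hspa5 (BiP), the chaperone of the endoplasmic reticulum, averaged 927 ± 119 CPM at KO ZT12 and 1673 ± 505 CPM at KO ZT6 (-0.85, adjusted p = 0.00179). In these genes KO ZT6 replicates 6 and 7 were low and replicate 3 was high. WT called 9 of the 20 chaperones lower, against 2.5% of all genes, with the same median of -0.51.

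**Figure D4:**
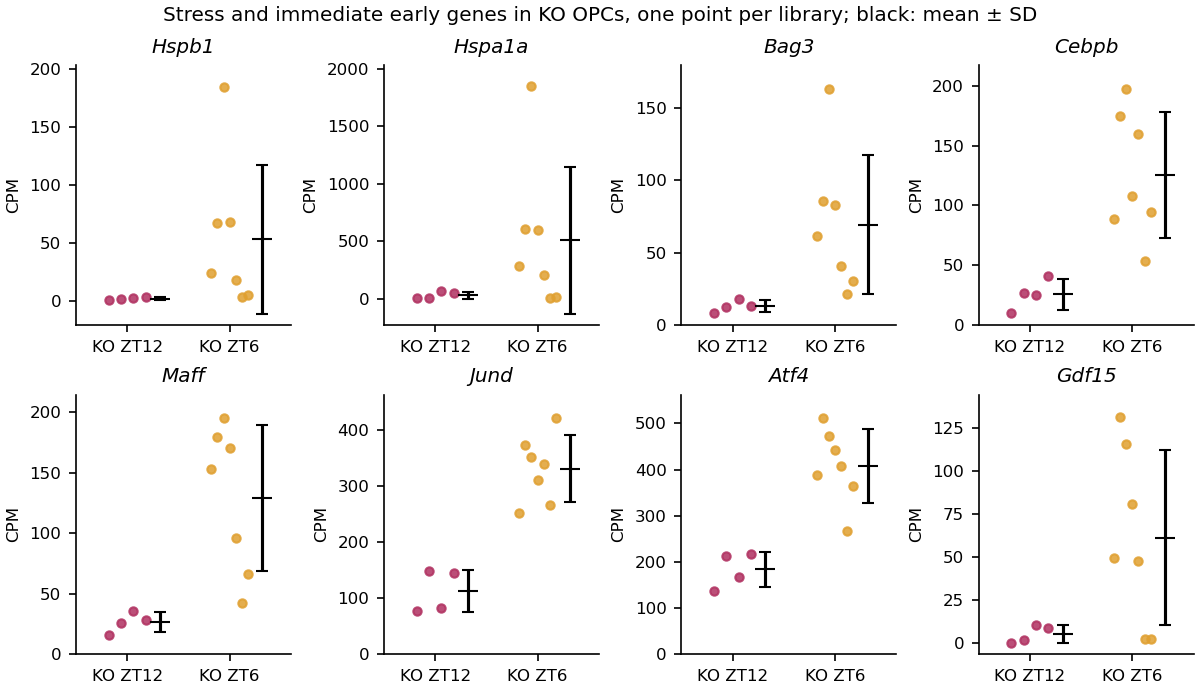
CPM of 8 stress and immediate early genes in each KO ZT12 (left, n = 4) and KO ZT6 (right, n = 7) library, with the mean ± SD in black. KO ZT12 libraries cluster at the bottom in each panel, while KO ZT6 libraries spread, most of all for Hspb1 and Hspa1a, whose highest library is replicate 3.

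Immediate early genes, transcription factors and feedback regulators that respond to stimuli without new protein synthesis, were lower as a group. All 33 had negative log2 fold changes, with a median of -1.11. Called lower were 25 and higher 0, against 4.82% and 2.19% of all genes. In 14 of the 33, every KO ZT12 library lay below every KO ZT6 library, against 2.22% of all genes. The list kept 20 calls with GC correction and 14 without KO ZT12 replicate 1, 24 without low-rRNA libraries, 27 without one-sex ones and 22 in the 11 libraries alone. Maff, a small MAF factor, had 15.5, 25.6, 36.0 and 28.5 CPM at KO ZT12, against 42.4, 153 and 195 CPM at KO ZT6 (lowest, median and highest). Its log2 fold change was -2.28 ± 0.33 (adjusted p = 0.000136).

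Jund, an AP-1 subunit, had 77.6, 148, 82.7 and 144 CPM at KO ZT12, all below the lowest of the KO ZT6 libraries (252, 339.6 and 421 CPM as lowest, median and highest). Its fall by 1.55 ± 0.22 on the log2 scale (adjusted p = 8.9e-05) stood beside a WT log2 fold change of 0.04 (adjusted p = 0.946), with 299.7 ± 110.1 CPM at WT ZT12 and 291 ± 15.6 CPM at WT ZT6. The difference between the genotypes was -1.59 ± 0.29 (adjusted p = 0.00437), and 0.186 with GC correction. Klf2, a zinc finger factor, averaged 98.2 ± 24.8 CPM at KO ZT12 and 382 ± 118 CPM at KO ZT6 (-1.96, adjusted p = 0.000169). Atf3, a stress-induced repressor, averaged 317 ± 106 CPM at KO ZT12 and 1284 ± 536 CPM at KO ZT6 (-2.02, adjusted p = 0.000222). Fos and Egr1, chosen after their values were seen because they define the class, had log2 fold changes of -0.57 and -0.83 that were not called (adjusted p = 0.218 and 0.0742). WT had 6 of the 33 called lower, against 2.5% of all genes, and a median of -0.21. The difference between the genotypes was called for 5 (Junb, Jund, Ier5, Klf2 and Zfp36), all more negative in KO, against 2.19% of all genes. It was called for 0 of the 33 with GC correction (adjusted p of at least 0.184), against 0.0219% of all genes. Without the low-rRNA libraries it was called for 0 of the 33 (at least 0.288) and for 0 of all genes. Without the one-sex libraries it was called for 23, against 995 of 23700 genes tested. That setting left only replicates 5 and 6 of WT ZT12, both of them low-rRNA libraries.

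NF-kB feedback and cytokine genes followed with 14 of 20 lower and 0 higher, against 4.82% and 2.19% of all genes, and a median of -1.10. WT called 7 of the 20 lower, against 2.5% of all genes, with a median of -0.75. The genotype difference was called for 0, against 3.14% of all genes. In KO the list changed with the setting. The count of lower genes in KO was 13 with GC correction, 8 without KO ZT12 replicate 1 and 10 in the 11 libraries alone. Ccl3 and Ccl4, chemokines made by activated microglia, averaged 221 ± 62.6 and 98.1 ± 45.7 CPM at KO ZT12, against 677 ± 210.1 and 367 ± 156 CPM at KO ZT6 (log2 fold changes -1.61 and -1.90, adjusted p = 0.000415 and 0.000624). Tnf had 29.5, 37.3, 61.8 and 36.5 CPM at KO ZT12, against 53.3, 112 and 177 CPM (lowest, median and highest) at KO ZT6 (-1.53, adjusted p = 0.000733). Rel, an NF-kB subunit, had -1.64 (adjusted p = 0.000684). Osm, a cytokine of the interleukin 6 family, fell by 1.75 (adjusted p = 0.000157), with every KO ZT12 library (20.1 to 34.4 CPM) below every KO ZT6 library (55.9 to 161 CPM). Lif, of the same family, had 0, 0.366, 0 and 1.61 CPM at KO ZT12 and 0.703, 3.89 and 16.4 CPM (lowest, median and highest) at KO ZT6. Its log2 fold change of -3.80 ± 0.99 (adjusted p = 0.0143) was not called without KO ZT12 replicate 1 or 3 (adjusted p up to 0.0733) or with limma-voom (0.0941).

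Microglial markers moved in the same direction beside these cytokines: all 20 had negative log2 fold changes with a median of -0.42, and edgeR called 0 (5 at an unadjusted p under 0.05, and 0 by DESeq2 or limma-voom). Cd68, the marker with the smallest p, averaged 149 ± 33.9 CPM at KO ZT12 and 229 ± 66.1 CPM at KO ZT6 (-0.62, adjusted p = 0.0861). The defining markers Cx3cr1, P2ry12 and Tmem119 were far from 0 in both groups, with means of 1309, 838 and 167 CPM at KO ZT12 and 1559, 1140 and 272 CPM at KO ZT6. Without the one-sex libraries 7 of the 20 were called lower. The part of microglial RNA in the cytokine result was not tested.

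Further stress lists held lower calls, read against 4.82% lower and 2.19% higher among all genes. Of 20 genes of the integrated stress and unfolded protein response, 8 were lower and 0 higher (median -0.35). The list had 5 calls without KO ZT12 replicate 1 or 4, 5 with library size alone and 5 in the 11 libraries alone. With GC correction 7 were lower, among them 6 of these 8. Atf4, the factor that integrates these signals, had 137, 213, 168 and 216 CPM at KO ZT12, below all KO ZT6 libraries (267, 408 and 511 CPM as lowest, median and highest). It fell by 1.15 ± 0.16 (adjusted p = 8.9e-05), while WT had -0.32 (adjusted p = 0.222). The difference was -0.83 ± 0.21 (adjusted p = 0.0273; 0.245 with GC correction). Ddit3 (CHOP), its proapoptotic target, fell by 1.65 (adjusted p = 0.000384). Herpud1 and Calr, 2 proteins of the endoplasmic reticulum, fell by 1.27 and 0.49 (adjusted p = 0.000707 and 0.00176).

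Of 15 p53 targets, 7 were lower and 0 higher (median -0.65), against 4.82% and 2.19% of all genes. In the 11 libraries alone 4 were lower. With GC correction 6 were lower, among them 5 of these 7. WT called 5 lower, against 2.5% of all genes, with a median of -0.48. The genotype difference was called for 0, against 3.14% of all genes. Bbc3 (PUMA), an inducer of apoptosis, averaged 15.3 ± 4.71 CPM at KO ZT12 and 50.5 ± 16.9 CPM at KO ZT6 (-1.72, adjusted p = 8.9e-05). Cdkn1a (p21), the inhibitor of cyclin-dependent kinases, had 36.8, 42.8, 35.6 and 31.9 CPM at KO ZT12, below every KO ZT6 library (63.5, 98.1 and 128 CPM as lowest, median and highest; -1.45, adjusted p = 0.000222). Pmaip1 (NOXA) and Btg2, an antiproliferative factor, fell by 1.90 and 1.43 (adjusted p = 0.000624 and 0.000664).

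Of 12 NRF2 antioxidant genes, 3 were lower and 1 higher, against 4.82% and 2.19% of all genes. The list did not fall as a whole, with 6 negative and 6 positive log2 fold changes (median -0.03, and 0.08 with library size alone). Osgin1, an oxidative stress inhibitor of growth, fell by 2.70 ± 0.44 (adjusted p = 0.000252), with 1.21 to 3.87 CPM at KO ZT12 and 4.35 to 23.5 CPM at KO ZT6. Hmox1, heme oxygenase 1, fell by 1.41 (adjusted p = 0.000624). Srxn1, sulfiredoxin, fell by 0.52 (adjusted p = 0.0187; 0.0948 without KO ZT12 replicate 1; 0.101 with GC correction). Slc7a11, the cystine transporter, was higher (1.16, adjusted p = 0.0385) but not with GC correction (0.095), and lost its call in 8 of 11 single-library omissions (adjusted p up to 0.0896), those without KO ZT6 replicates 1 to 4 or any KO ZT12 replicate.

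Of 19 glucocorticoid-responsive genes, 10 were lower and 0 higher (median -0.59), against 4.82% and 2.19% of all genes. The list had 13 negative and 6 positive log2 fold changes. With GC correction 8 of the 10 were still called lower, and 1 other gene was called higher. It kept 4 calls without KO ZT12 replicate 1 and 3 in the 11 libraries alone, where Sgk1 and Errfi1 had adjusted p-values of 0.0665 and 0.0662. The lower ones include Per1, Cdkn1a and the kinase gene Sgk1 and the EGFR feedback gene Errfi1 (both -1.13, adjusted p = 0.00507 and 0.001). Fkbp5, a cochaperone that is among the most constant targets of the receptor and was chosen after its values were seen, had 48.7 ± 3.43 CPM at KO ZT12 and 48.4 ± 7.51 CPM at KO ZT6 (0.01, adjusted p = 0.978). Tsc22d3 of the same list, also chosen after its values were seen, was called lower. It had 36.1 ± 5.90 CPM at KO ZT12 and 54.3 ± 11.2 CPM at KO ZT6 (-0.59, adjusted p = 0.0154). Several genes stand in more than 1 list, so these counts are not independent.

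Other genes with the largest falls were the growth differentiation factor Gdf15, the NF-kB cofactor Bcl3, the chemokine-binding receptor Ccrl2 and the transcription factor Cebpb. Cebpb had 9.93, 26.7, 24.7 and 40.8 CPM at KO ZT12, against 53.2, 107 and 197 CPM (lowest, median and highest) at KO ZT6, with no overlap (-2.29 ± 0.33, adjusted p = 0.000126). WT Cebpb changed by -0.39 (adjusted p = 0.521), and the genotypes differed by -1.90 ± 0.43 (adjusted p = 0.0147; 0.243 with GC correction). Gdf15 averaged 5.45 ± 5.09 CPM at KO ZT12 and 61.4 ± 50.8 CPM at KO ZT6 (-3.48, adjusted p = 0.017), with KO ZT6 replicates 6 and 7 at 2.40 and 2.63 CPM. It lost its call without KO ZT12 replicate 1 or 2 (adjusted p up to 0.0858) and with limma-voom (0.256). Ccrl2 fell by 2.35 (adjusted p = 0.000585) and Bcl3 by 2.39 (adjusted p = 0.00372). Among the smallest p-values were those of the chromatin reader Brd2 (-0.72, adjusted p = 6.52e-05), the zinc finger factors Zfpm1 (-0.94, adjusted p = 0.000105) and Zbtb7a (-0.85, adjusted p = 0.000126), and the pseudokinase Stk40 (-0.76, adjusted p = 0.000157). All 4 KO ZT12 libraries lay below all KO ZT6 libraries for these 4 genes, as they did for 392 of the 1100 genes called lower. Picking genes by p in the same contrast favours such separation, so it adds no support.

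Among genes higher at KO ZT12, the 10 with the smallest p ranged from 0.38 to 1.07 in log2 fold change. Brcc3, a deubiquitinase of the DNA damage response, had 49.2, 46.5, 55.5 and 44.4 CPM at KO ZT12, above every KO ZT6 library (30.5, 34.5 and 38.1 CPM as lowest, median and highest; 0.54, adjusted p = 0.000439). Plagl1, an imprinted zinc finger gene that restrains growth, averaged 20.025 ± 2.27 CPM at KO ZT12 and 10.9 ± 2.86 CPM at KO ZT6 (0.88, adjusted p = 0.000806). Rsad2 (viperin) was the 1 of 20 interferon-stimulated genes called higher, against 2.19% of all genes. It had 5.35 to 10.7 CPM at KO ZT12 and 2.87 to 5.05 CPM at KO ZT6 (1.07, adjusted p = 0.00129). In that list 5 log2 fold changes were positive and 15 negative (median -0.20). The others of the 10 genes with the smallest p were Zfp945, Anapc4 (a subunit of the anaphase-promoting complex), Wdr47, Casp2 (caspase 2), Pcmtd1, Papolg (a poly(A) polymerase) and Ccdc88a (girdin), with log2 fold changes of 0.65, 0.38, 0.51, 0.39, 0.43, 0.58 and 0.48. Their adjusted p-values ran from 0.000585 to 0.00132.

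The largest rises included genes of astrocytes, blood and the extracellular matrix. Tnc (tenascin C), a matrix protein of astrocytes and progenitors, had 93.2, 91.5, 88.3 and 103 CPM at KO ZT12, all above the KO ZT6 libraries (9.61, 44.0 and 68.4 CPM as lowest, median and highest; 1.33, adjusted p = 0.0145). Cyp4f15, a fatty acid hydroxylase, had 3.54 to 6.80 CPM at KO ZT12 and 0.470 to 2.83 CPM at KO ZT6 (1.84, adjusted p = 0.00387). Bmpr1b, a receptor of bone morphogenetic proteins, averaged 11.6 ± 1.91 CPM at KO ZT12 and 4.26 ± 1.94 CPM at KO ZT6 (1.44, adjusted p = 0.00302). Isg20, an exonuclease induced by interferon, was higher by 1.39 (adjusted p = 0.00516). Abca8a, Fam107a and Ptx3 were higher by 1.42, 1.57 and 1.41 (adjusted p = 0.0115, 0.0161 and 0.0153), each not called without KO ZT12 replicate 3 (0.0701, 0.0986 and 0.193). Ephx2 (1.32, adjusted p = 0.031) lost its call without KO ZT12 replicate 1, 2 or 3 (adjusted p up to 0.0735). Cfap44 (1.47, adjusted p = 0.045) lost it in 8 of the 11 fits without 1 library (adjusted p up to 0.145), all but those without replicate 3 or 5 of KO ZT6 or replicate 3 of KO ZT12, and with GC correction (0.071).

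Markers of other cell types rose beside these genes. Of 18 astrocyte markers, 5 were higher and 0 lower (median 0.59), against 2.19% and 4.82% of all genes. Their sum was 2249 to 2529 CPM in the KO ZT12 libraries, all above the 1170 to 2007 CPM of the KO ZT6 libraries. Slc1a3, the glutamate transporter GLAST, had 668, 626, 636 and 617 CPM at KO ZT12, above the 277, 445 and 479 CPM (lowest, median and highest) at KO ZT6 (0.62, adjusted p = 0.00959). Slc4a4 (0.90, adjusted p = 0.00972), Aqp4 (1.15, adjusted p = 0.0244) and Aldh1l1 (0.98, adjusted p = 0.0322) followed. Aqp4 was not called with GC correction (0.0627) or without replicate 3 of KO ZT6 or replicate 1 or 3 of KO ZT12 (up to 0.0934). The list kept 2 calls without replicate 3 of KO ZT6 or replicate 1 or 3 of KO ZT12, and 3 without replicate 2 or 4 of either time, and Aldh1l1 was lost in those 7 fits (up to 0.0729). With library size alone 9 were called, and in the 11 libraries alone 2. WT called 12 of the 18 higher, against 2.14% of all genes, with a median of 0.81. The difference between genotypes was called for 0, against 3.14% of all genes.

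Of 20 neuron markers, 3 were higher and 0 lower (median 0.38), against 2.19% and 4.82% of all genes. They summed to 1798 to 2301 CPM at KO ZT12 and 1088 to 1926 CPM at KO ZT6. WT called 6 of the 20 higher, against 2.14% of all genes, with a larger median of 1.01. The genotype difference was called for 0, against 3.14% of all genes. Gad2 and Gad1, the enzymes that make GABA, were higher by 1.08 and 0.58 (adjusted p = 0.0107 and 0.0141), and Dcx (doublecortin), a marker of young neurons, by 0.52 (adjusted p = 0.0321). Without KO ZT12 replicate 3, 1 call was left, and Gad2 had an adjusted p of 0.0514. Dcx had up to 0.103, also without replicate 2, 3 or 5 of KO ZT6 or replicate 1 or 4 of KO ZT12, and 0.136 with GC correction. In the 11 libraries alone 2 were called.

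Of 8 red blood cell markers, 5 were higher and 0 lower (median 1.07), against 2.19% and 4.82% of all genes. They summed to 2216 to 4889 CPM at KO ZT12 and 1101 to 2772 CPM at KO ZT6. WT called 5 of the 8 higher, against 2.14% of all genes, with a median of 1.05. The genotype difference was called for 0, against 3.14% of all genes. Hba-a2, an α-globin gene with a near-identical copy (Hba-a1) that can share its reads, had 147, 316, 123 and 48.0 CPM at KO ZT12 and 16.8, 36.6 and 81.2 CPM (lowest, median and highest) at KO ZT6. It was the largest rise among genes with a mean log2 CPM above 1, at 1.89 ± 0.41 (adjusted p = 0.00376). Alas2, the first enzyme of heme synthesis in red cells, had 86.4 to 131 CPM at KO ZT12, above the 21.1 to 62.4 CPM at KO ZT6 (1.11, adjusted p = 0.00352). Hbb-bt, a β-globin with the near-identical copy Hbb-bs, was higher by 1.03 (adjusted p = 0.0189). Without KO ZT12 replicate 3 the list kept 2 calls and without KO ZT12 replicate 2 it kept 3, and Hbb-bt was lost in both fits (up to 0.0826). In the 11 libraries alone 3 were called. Of 15 endothelial and 12 choroid plexus and ependymal markers edgeR called 0 (1 and 2 at an unadjusted p under 0.05, and 0 by DESeq2 or limma-voom). Endothelial markers summed to 56.2 to 87.6 CPM at KO ZT12 and 43.5 to 87.2 CPM at KO ZT6. Mural and fibroblast markers, which include the pericytes in which NG2 is also used, had 1 of 14 lower, the smooth muscle myosin gene Myh11 (-2.58, adjusted p = 0.029), which averaged under 1 CPM in both groups and lost its call with GC correction (0.0502) and without replicate 4 of KO ZT6 or replicate 1 or 3 of KO ZT12. Their sums were 218 to 451 CPM at KO ZT12 and 244 to 567 CPM at KO ZT6. The part of other cells in the rest of the comparison was not tested.

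OPC markers and lineage factors held 5 calls in 2 lists, read against 4.82% lower and 2.19% higher among all genes. Of 20 OPC markers, 2 were lower and 0 higher (median -0.15): C1ql1, a secreted C1q-like ligand of synapses and OPCs, and Gpr17, a receptor of committed precursors. Gpr17 lost its call in 9 of the 11 fits without 1 library, with RLE scaling and with library size alone, which left C1ql1. C1ql1 had 112, 196, 95.8 and 197 CPM at KO ZT12, below every KO ZT6 library (226, 289 and 329 CPM as lowest, median and highest; -0.92 ± 0.16, adjusted p = 0.000624). WT C1ql1 changed by 0.23 (adjusted p = 0.456), a difference of -1.15 ± 0.22 (adjusted p = 0.00569; 0.212 with GC correction). Pdgfra (0.08, adjusted p = 0.723) and Cspg4 (-0.30, adjusted p = 0.192), taken outside the rule as the selection target and the Cre driver, were not called. Of 18 lineage transcription factors, 3 were lower and 0 higher (median -0.05, and 0.06 with library size alone): Id2, an inhibitor of differentiation that had 105 to 144 CPM at KO ZT12 and 158 to 421 CPM at KO ZT6 (-1.20, adjusted p = 0.000498), and the Notch effectors Hes1 (-1.10, adjusted p = 0.00747) and Hes5 (-0.69, adjusted p = 0.0376). Without KO ZT12 replicate 1 this list kept 1 call, with an adjusted p of 0.0622 for Hes1, and in the 11 libraries alone it also kept 1 (0.105 for Hes1). Hes5 was not called with GC correction (0.245). Of 19 myelin and early oligodendrocyte genes, Sirt2 (-0.42, adjusted p = 0.00413) and Gpr17 (-0.41, adjusted p = 0.0465) were lower, and with GC correction 0 were (0.0614 and 0.174).

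Metabolism and cell cycle lists held few calls, read against 2.19% higher and 4.82% lower among all genes. Of 24 DNA replication genes 3 were lower, among them Pcna, the sliding clamp (175 to 195 CPM at KO ZT12, 207 to 315 CPM at KO ZT6; -0.54, adjusted p = 0.00255), which alone held with GC correction. The other 2 were Cdt1 (-0.42, adjusted p = 0.0234; 0.247 with GC correction) and E2f1 (-0.53, adjusted p = 0.0277; 0.217 with GC correction). The list's median of -0.03 was 0.08 with library size alone. The list kept 1 call without KO ZT12 replicate 1, 3 or 4. Cdc20 was the 1 of 24 mitosis genes called (-0.44, adjusted p = 0.0472; 0.213 with GC correction). Of 13 G1 regulators Cdkn1a was lower and Ccnd2, cyclin D2, higher (0.69, adjusted p = 0.0256). Glycolysis and hypoxia had 4 of 25 lower: Hk2, hexokinase 2 (78.0 ± 16.2 CPM at KO ZT12, 163 ± 53.5 CPM at KO ZT6; -1.06, adjusted p = 0.00349), Pfkfb3, which makes the activator of phosphofructokinase (-0.98, adjusted p = 0.0157; 0.109 without KO ZT12 replicate 1), the pyruvate kinase gene Pkm (-0.30, adjusted p = 0.0327) and the aldolase gene Aldoa (-0.35, adjusted p = 0.0482). With GC correction Pkm and Aldoa were not called (0.523 and 0.396). The list kept 1 call without KO ZT12 replicate 1 or in the 11 libraries alone, and 2 without KO ZT6 replicate 3.

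Of 24 oxidative phosphorylation genes 2 were lower, the ATP synthase subunits Atp5k (2.19, 6.66, 1.98 and 5.48 CPM at KO ZT12; 5.64, 9.86 and 12.3 CPM as lowest, median and highest at KO ZT6; -1.26, adjusted p = 0.00444) and Atp5e (-0.60, adjusted p = 0.00516; 0.066 without KO ZT12 replicate 1). In the 11 libraries alone neither passed (0.0589 and 0.0537). Of 24 ribosomal protein genes 6 were lower (median -0.24), led by Rpl13 (-0.58, adjusted p = 0.00402), Rps24 (-0.48), Rplp1 (-0.55) and Rpl19 (-0.43). With GC correction 2 were called, and Rplp1 and Rpl19 had adjusted p-values of 0.159 and 0.204. The list kept 1 call without replicate 3 of KO ZT6 or replicate 1 or 3 of KO ZT12, and 3 without replicate 2 or 7 of KO ZT6 or replicate 2 of KO ZT12. Cholesterol genes had 2 of 24 lower, among them Srebf2, the master regulator of the pathway (-0.27, adjusted p = 0.0455), and 0 with GC correction (0.762 for Srebf2). Fatty acid synthesis genes (14) and collagens and other matrix genes (16) had 0 edgeR calls, with medians of -0.0015 and -0.28 (1 and 0 genes at an unadjusted p under 0.05, 1 and 0 by DESeq2, and 0 by limma-voom). E2f1, Cdc20, Ccnd2, Pkm, Aldoa, Rps24, Rplp1, Rpl19, Srebf2, Hes5, Gpr17 and Por lost their calls without KO ZT12 replicate 1 and without at least 2 other libraries, with adjusted p-values up to 0.125, 0.23, 0.0657, 0.204, 0.242, 0.142, 0.223, 0.147, 0.213, 0.202, 0.181 and 0.159.

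**Figure D5:**
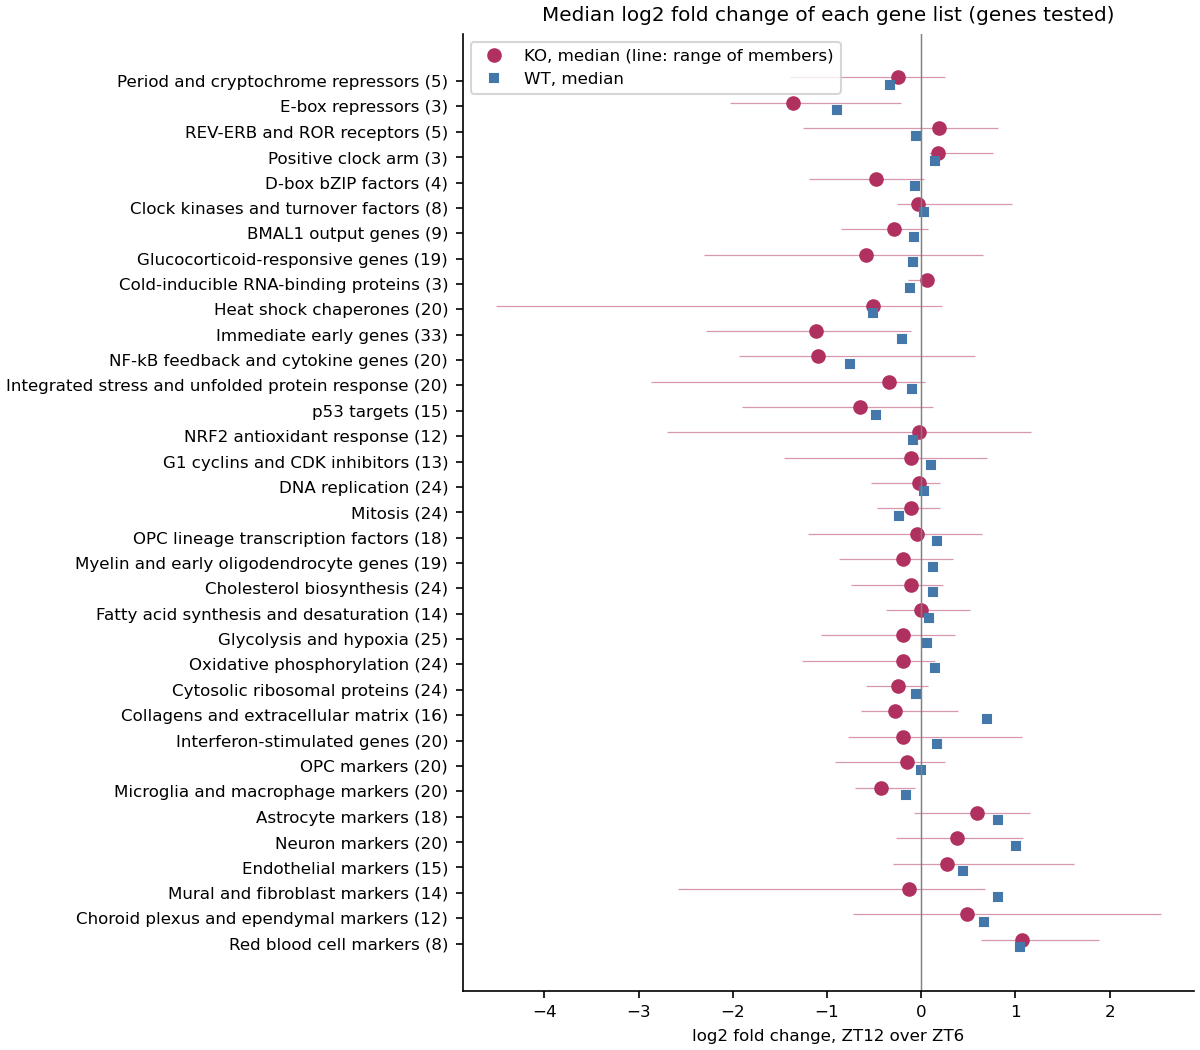
Median log2 fold change, ZT12 over ZT6, of each gene list in KO (circles, with the range of members as a line) and in WT (squares); the number of genes tested stands in brackets. In KO the immediate early (-1.11), NF-kB and cytokine (-1.10) and E-box repressor (-1.36) lists are lowest and red blood cell markers (1.07) highest.

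The parallel contrast in WT asks which of these differences also stand where Bmal1 is intact. With GC correction WT had 343 genes higher (1.5%) and 492 lower (2.16%), which is 3.66% in all. The overlaps that follow are of calls without GC correction. Of the genes lower in KO (4.82% of all genes), 218 were also lower in WT (2.5% of all genes). They are 19.8% of the KO list and 38.3% of the WT list. Another 66 genes were higher in both (13.2% and 13.5%), against 2.19% of all genes higher in KO and 2.14% in WT. Opposite calls were made for 13 of the genes lower in KO and 4 of those higher. Across 22798 genes the 2 sets of log2 fold changes had a correlation of 0.09, and 0.14 with GC correction. They also depended on GC content in opposite directions, with correlations across 11526 genes of -0.39 in KO and 0.27 in WT.

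The difference between the genotypes was called for 715 genes (3.14%), 215 more positive (0.943%) and 500 more negative (2.19%) in KO. The 10 with the smallest p among named genes were Gpr137, Syngr1, Rrp9, Mark4, Dexi, Vps50, Trim8, Sh2b1, Trdmt1 and Ogfod2. Gpr137, a lysosomal membrane protein, had 25.3 ± 3.01 CPM at KO ZT12 and 35.7 ± 2.62 CPM at KO ZT6, against 37.5 ± 4.19 CPM at WT ZT12 and 29.7 ± 1.57 CPM at WT ZT6 (difference -0.83 ± 0.12, adjusted p = 0.00117). Trdmt1, a tRNA methyltransferase, went the other way, with 13.2 ± 1.89 CPM at KO ZT12 and 8.29 ± 1.28 CPM at KO ZT6, against 7.92 ± 0.842 CPM at WT ZT12 and 10.6 ± 1.39 CPM at WT ZT6 (1.09 ± 0.19, adjusted p = 0.0032). Atp5k differed by -2.02 ± 0.38 (adjusted p = 0.00513), with 4.07 ± 2.35 CPM at KO ZT12 and 9.80 ± 2.28 CPM at KO ZT6, against 11.7 ± 1.67 CPM at WT ZT12 and 6.93 ± 1.84 CPM at WT ZT6. With GC correction 5 genes passed (0.0219%) and none of these 11 did (adjusted p from 0.054 to 0.377). Without the low-rRNA libraries, which removes, from these 4 groups, WT ZT12 replicates 4, 5 and 6 and KO ZT6 replicate 7, edgeR called 0 (1982 at an unadjusted p under 0.05). Leaving out KO ZT12 replicate 1 or 3 left 96 or 168 genes.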

How the data were processed

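RNA was sequenced from immunopanned OPCs, poly-A selected, with paired ends, per the labels' protocols. The authors deposited 1 table of raw counts per gene for all 38 libraries. The submitters' processing notes name fastp, HISAT2 2.0.5, featureCounts 1.5.0-p3 and GRCm38 (mm10), and the annotation release and strand setting have no entry in the labels or headers used. Libraries were grouped by the labels. Replicates are pools of 2 mice, and p-values measure the spread between these libraries.

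Of 54532 genes, 22798 passed edgeR's low-count filter by group and held 99.9% of the counts. KO ZT12 minus KO ZT6, the same contrast in WT and the difference between the 2 were tested with the quasi-likelihood fit of edgeR 4.0.16 (R 4.3.3) on all 8 groups with TMM scaling, at a Benjamini-Hochberg adjusted p under 0.05. Every adjusted p printed is from this fit unless another tool or setting is named. Standard errors are the log2 fold change divided by the square root of F. CPM uses the TMM-scaled library size, and intervals cover no more than the replicate spread. Named genes were the 10 largest changes (mean log2 CPM above 1) and the 10 smallest p-values in each direction, all clock genes, up to 4 genes of each other list by smallest p, and the 10 smallest p-values of the genotype difference. Predicted, RIKEN, pseudogene, rRNA and sex-linked genes were left out of the first, second and last of these. Pdgfra, Cspg4, Fos, Egr1, Fkbp5, Tsc22d3, Hspa1b, Cx3cr1, P2ry12 and Tmem119 were named outside this rule after their values were seen. Of these, only Pdgfra and Cspg4 are among the 126 genes followed through the alternatives. A few genes that the rule names are not reported here. The members and lists were chosen with earlier results of these data known. Several alternatives were run: RLE scaling, library size alone, no count filter, DESeq2 1.42.0, limma-voom (limma 3.58.1), fits on fewer libraries, a replicate block and leaving out each library. GC correction (alone, with length or with the block) was chosen after seeing the data: each library's log2 deviation was smoothed on transcript GC content (lowess span 0.3, 11429 genes) and entered as an offset. The low-rRNA libraries had under 0.3% of counts in ribosomal RNA genes. Scripts were tested on simulated counts. Promoter sequences are from RefSeq on GRCm38.p6. No 2 libraries within KO ZT12 or within KO ZT6 were near-identical, with a chi-square per degree of freedom of at least 28.7.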

Additional observations from a re-analysis of the deposited data

Results flagged for a closer look

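Single libraries stood far from the rest of their group in 14 of 252 gene and group combinations tested (Dixon's test on log2 CPM), and chance flags about 1 in 20. At KO ZT12, replicate 1 stood apart for Ccdc88a (328 CPM), Gpr137 (20.8 CPM), Klf2 (61.4 CPM) and Rplp1 (206 CPM), replicate 2 for Slc7a11 (65.0 CPM), replicate 3 for Bcl3 (0 CPM) and replicate 4 for Stk40 (32.8 CPM). At KO ZT6, replicate 1 stood apart for Alas2 (21.1 CPM), Aldh1l1 (4.66 CPM) and Hbb-bt (42.5 CPM), replicate 3 for Cfap44 (0 CPM), Rpl19 (473 CPM) and Rps24 (540.5 CPM) and replicate 4 for Papolg (17.2 CPM).

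Among the 126 named genes, 31 had a ZT12 versus ZT6 change that differed between KO and WT by the interaction test of edgeR (adjusted p under 0.05), given here as the KO minus WT difference in log2 fold change. It was negative for Atf4 (-0.83), Atp5e (-0.74), Atp5k (-2.02), Brd2 (-0.45), C1ql1 (-1.15), Cebpb (-1.90), Dbp (-0.77), Dexi (-0.93), E2f1 (-0.73), Gpr137 (-0.83), Jund (-1.59), Klf2 (-1.35) and Mark4 (-0.77). It was also negative for Ogfod2 (-1.24), Osm (-1.18), Por (-0.45), Rpl13 (-0.66), Rrp9 (-0.90), Sh2b1 (-0.64), Sirt2 (-0.46), Syngr1 (-0.67), Trim8 (-0.87), Zbtb7a (-0.68) and Zfpm1 (-0.92). It was positive for Brcc3 (0.62), Casp2 (0.42), Ccdc88a (0.51), Clock (0.61), Pcmtd1 (0.50), Trdmt1 (1.09) and Vps50 (0.53). None of the 31 passed with GC correction.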

How the results depend on the processing

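The KO comparison called 1600 genes. The count was 371 (65 higher, 306 lower) with only the 11 KO ZT12 and KO ZT6 libraries, 1012 without the low-rRNA libraries, 941 with GC correction and 1002 with GC and length correction. Leaving out single libraries gave 567 (without KO ZT12 replicate 1) to 2005 (without KO ZT6 replicate 1). RLE scaling (1611), library size alone (2055), no count filter (1329), DESeq2 (2206), limma-voom (1682), the 19 KO libraries (1136), leaving out the one-sex libraries (1943) and the block with GC correction (1138) stayed within 1.5 times.

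The genotype difference called 715 genes. The count was 455 without the count filter, 1254 by DESeq2, 64 with the replicate block, 0 without the low-rRNA libraries, 5 with GC correction, 29 with GC and length correction and 0 with the replicate block and GC correction (1884 at an unadjusted p under 0.05). Leaving out single libraries gave 96 (without KO ZT12 replicate 1) to 1285 (without KO ZT6 replicate 1), with 168 without KO ZT12 replicate 3, 270 without WT ZT6 replicate 3, 308 without KO ZT6 replicate 7 and 316 without WT ZT12 replicate 4. The cause was not tested.

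The replicate block gave 1386 KO calls, 1091 of them shared. Same-numbered KO libraries had correlations of deviations of 0.30, 0.02, 0.19 and 0.17, KO ZT12 replicate 2 correlated best with KO ZT6 replicate 7, and no label ties the numbers, so they were not treated as pairs. Among called genes named, the block ended the calls of Hbb-bt, Gad1 and Fam107a (adjusted p = 0.0549, 0.0633 and 0.0866) and of 13 others, and it left 1 of the 5 immediate early genes with a genotype difference, Jund (adjusted p = 0.0355).

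Of 112 called genes named, none changed direction under any setting run. Calls were lost for 49 with only the 11 libraries, 33 and 27 without KO ZT12 replicate 1 and 3, 22 with GC correction, 16 with library size alone, 16 with the block and 0 with DESeq2. Signs changed in 9 instances among uncalled genes: Clock (-0.044 with GC and length, -0.015 with the block and GC), Cry2 (0.038 with GC, 0.034 with GC and length, and -0.16 to 0.0091 without single libraries), Hlf (0.026 with library size alone), Pdgfra (-0.0026 to 0.16 without single libraries), Rora (-0.028 with GC and length) and Tef (-0.0052 to 0.094 without single libraries). The changes came without KO ZT6 replicate 1 (Cry2), KO ZT12 replicate 1 (Pdgfra) and KO ZT6 replicate 3 (Tef).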
